A study of Mus musculus with 23 samples.

Results

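The genes described here encode subunits and partners of the Polycomb repressive complexes, chosen by name: Ezh2, Suz12, Eed, Jarid2, Mtf2, Rnf2, Ring1, Pcgf6, Kdm2b and Rybp. They are 10 of the 55413 genes of the mouse annotation used. The values are the sites at which the DNA-binding protein CTCF was mapped to RNA, counted on the strand of each gene between its annotated ends.

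The sites come from iCLIP2, in which UV light links a protein to the RNA it touches, the protein is pulled down, and the end of the cDNA marks the linked nucleotide. All cells were E14 mouse embryonic stem cells (ESCs) in which both copies of endogenous CTCF carried an AID2 degron, or neural progenitor cells (NPCs) after 2 days of differentiation. Every group, the controls included, was treated with 1 µM 5-Ph-IAA, which degrades endogenous CTCF, and 1 µg/mL doxycycline, which induces a Flag-tagged rescue CTCF, for 24 hours. The rescue was either wild-type (WT) or carried a deletion in zinc finger 1, a part of CTCF that binds RNA (ΔZF1), and the control without UV (noXL) was made with the WT rescue only.

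The UV dose was 400 mJ/cm2, nuclear RNA was used, and the rescue protein was pulled down through its Flag tag. Each group held 4 libraries except NPC WT, which held 3. Both rescue lines were made from the same degron clone and each was itself 1 clone, so that a difference between WT and ΔZF1 cannot be told apart from a difference between clones. Because the libraries of a group were merged before sites were called, each group has 1 list of sites and no replicate error, and no test between groups could be made. Intervals are 95% Wilson intervals, and those of differences between ratios are 95% normal intervals from the counts. Both cover counting error only. The number of sites in a gene follows both its RNA level and its contact with CTCF, and in such bulk lists fewer cells with an RNA cannot be told apart from less RNA per cell. RNA levels were not analysed here.

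Polycomb proteins keep developmental genes silent through 2 families of complexes. PRC2, built on EZH2, SUZ12 and EED, methylates histone H3, while PRC1, built on a RING1 or RNF2 ubiquitin ligase with a PCGF protein, adds ubiquitin to histone H2A. In embryonic stem cells both hold the promoters of lineage genes in a repressed state, and accessory subunits decide where the complexes bind. The RNAs that encode these proteins, and not the proteins themselves, are what was measured.

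Among ESCs, the lists held 429119 sites inside genes with WT, 217770 with ΔZF1 and 150821 without UV, and among NPCs 230147, 153211 and 102002. Ratios between lists were therefore scaled to these genic sites, given as log2 with a pseudocount of 1, and read against limits of 1 and -1 for genes whose sites in both lists added up to at least 20. The cell types were checked on marker genes. Of the ESC markers, Esrrb had 460 sites in ESC WT against 0 in NPC WT, Klf4 had 66 and 0, Tfcp2l1 had 343 and 5, Zfp42 had 164 and 11, and Nanog had 85 and 14. Of the NPC markers, Nes had 2 sites in ESC WT against 28 in NPC WT, while Sox1, Pax6, Hes5 and Zic1 had 0 in both, so that of the NPC markers only Nes carried sites in NPC WT.

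To show what a site looks like, the ESC WT site with the highest score in each gene is printed with 10 nucleotides on either side, as RNA from 5′ to 3′, read from the mm10 (GRCm38) reference. The capital letter is the nucleotide called as crosslinked. The score is the one the site caller gave and ranks sites within a list.
Ezh2, chr6:47595020-47595040, minus strand, 5′ UTR: uuggguugcuGcguuuggcgc
Suz12, chr11:79995534-79995554, plus strand, intron: cuugggcuggGuugauaauuu
Eed, chr7:89962993-89963013, minus strand, intron: ggccauaaucCacauccaauc
Jarid2, chr13:44731321-44731341, plus strand, 5′ UTR: gagcccuccgCuguggugcug
Mtf2, chr5:108087062-108087082, plus strand, coding exon: augaaaugguUauaugugaua
Rnf2, chr1:151500803-151500823, minus strand, 5′ UTR: auugcggaagCcgagacucgc
Ring1, chr17:34024647-34024667, minus strand, 5′ UTR: gugacgucgaGccucggcgcc
Pcgf6, chr19:47045763-47045783, minus strand, intron: ugcuuauuuuUggaauuucaa
Kdm2b, chr5:122900359-122900379, minus strand, intron: gccccgccccGcccccucccg
Rybp, chr6:100287281-100287301, minus strand, 5′ UTR: ggggcgccggGggccagcccg

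Among these 10 best-scoring ESC WT sites, 2 lay on uridine, 5 on guanine and 3 on cytosine, and 5 lay in a 5′ UTR. The highest score of all belonged to Rybp, at 57.0 in ESC WT. At that same nucleotide the ESC scores were 49.5 without UV and 32.1 with ΔZF1, and the NPC scores 32.4 with WT and 16.5 with ΔZF1. The strongest Rybp site was therefore also called without UV in ESCs, whereas no site was called there in NPC noXL. For 3 of the 10 best ESC WT sites, a noXL site of ESCs lay within 5 nt.

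Among the best-scoring NPC WT sites, 8 of 10 lay on uridine, 4 lay in coding exons and 3 in a 5′ UTR, and 0 had an NPC noXL site within 5 nt. In Rybp and Ring1 the best site was the same guanine as in ESC WT, and in Ezh2, Suz12 and Mtf2 it lay on a uridine that was also called in ESC WT. These 3 sequences, chosen after their values were seen, are shown because they are the members' best NPC WT sites on uridine that ESC WT shares.
Ezh2, chr6:47544553-47544573, minus strand, coding exon: agccaaauauUgaaccuccug
Suz12, chr11:80033614-80033634, plus strand, 3′ UTR: aacucugauuUuugccucugg
Mtf2, chr5:108087371-108087391, plus strand, coding exon: agugcguuuuUgcaacaacua

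In ESCs the members together held 2535 sites with WT, 1182 with ΔZF1 and 835 without UV, and in NPCs 801, 613 and 485. As a share of genic sites this was 0.591% in ESC WT (0.568 to 0.614) and 0.348% in NPC WT (0.325 to 0.373). The noXL lists gave 0.554% in ESCs (0.517 to 0.592) and 0.475% in NPCs (0.435 to 0.520). In ESCs the members thus took about the same share of sites with and without UV.

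**Figure D1:**
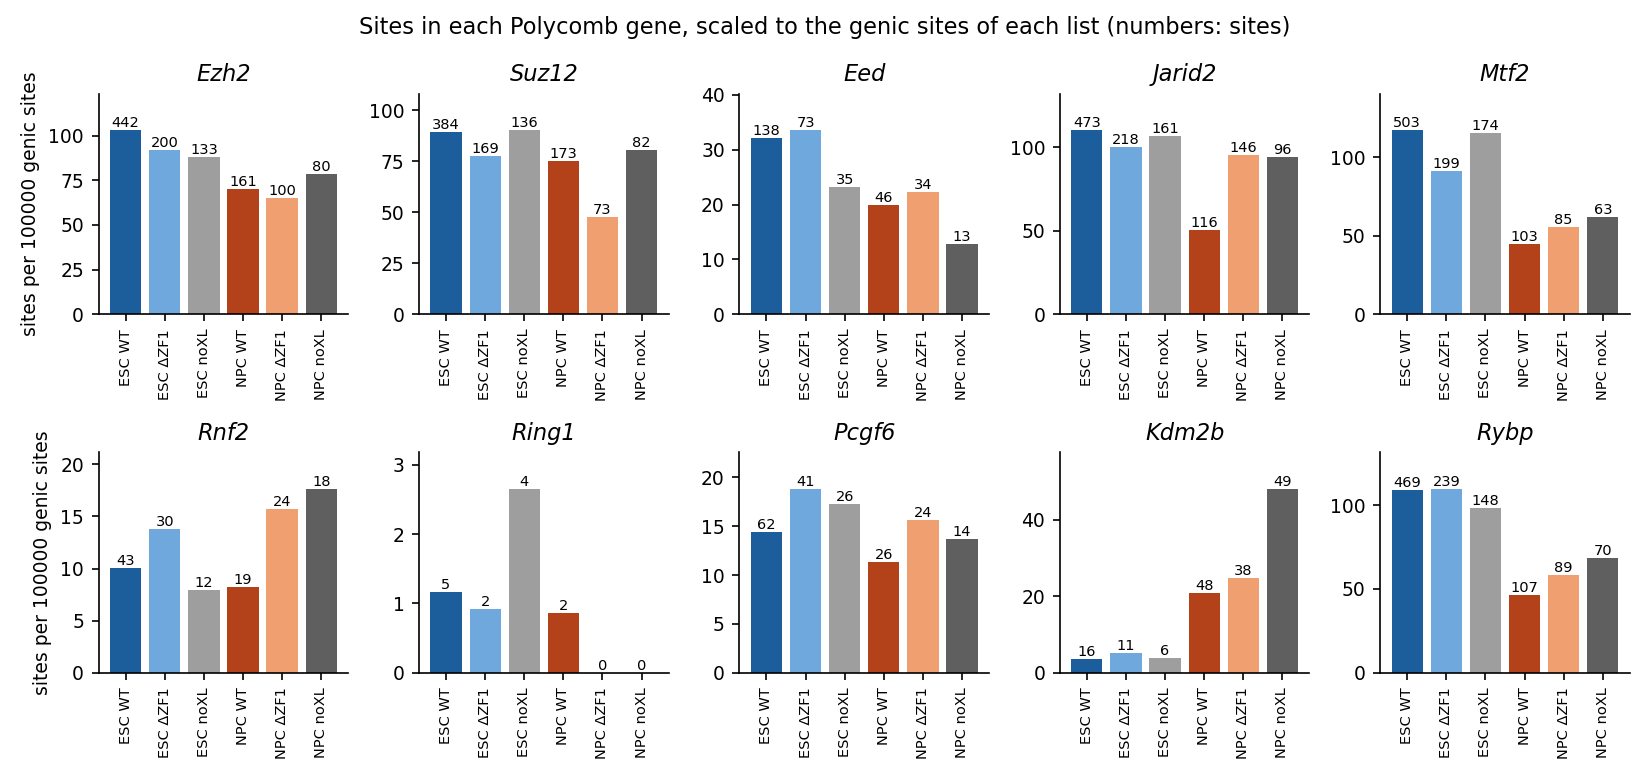
Sites of each Polycomb gene per 100000 genic sites of the list (y axis, from 0, with its own scale in each panel) in the 6 lists (x axis), with counts above the bars and no error bars because each group is 1 list. Mtf2, Jarid2 and Rybp were highest in the 3 ESC lists, with 503, 473 and 469 sites in ESC WT, whereas Kdm2b was highest in the 3 NPC lists.

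Of the core of PRC2, Ezh2, which encodes the methyltransferase (chr6:47530139-47595341, minus strand), had 442 sites with WT, 200 with ΔZF1 and 133 without UV in ESCs, and 161, 100 and 80 in NPCs. Suz12, which encodes the scaffold of the complex (chr11:79993106-80034123, plus strand), had 384, 169, 136, 173, 73 and 82 sites in the same order. Eed, which encodes the subunit that binds methylated histone H3 (chr7:89954654-89980983, minus strand), had 138, 73, 35, 46, 34 and 13. Among the 8317 genes with at least 5 sites in ESC WT, Ezh2 ranked 54, Suz12 66 and Eed 661. In NPC WT, Suz12 ranked 81 and Ezh2 101 among 7614 such genes.

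The genes for PRC2 accessory subunits were as rich in sites. Mtf2, which encodes a subunit that helps place PRC2 at CpG islands (chr5:108065674-108109004, plus strand), had 503 sites with WT, 199 with ΔZF1 and 174 without UV in ESCs, and 103, 85 and 63 in NPCs. Jarid2, which encodes a cofactor of another form of PRC2 (chr13:44729474-44921643, plus strand), had 473, 218, 161, 116, 146 and 96 sites in that order. Mtf2 was the highest-ranked member in ESC WT, at 32, with Jarid2 at 42. In NPC WT they ranked 300 and 239.

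The genes of PRC1 covered the whole range. Rybp, whose protein takes part in variant PRC1 and binds ubiquitinated histone H2A (chr6:100228565-100287485, minus strand), had 469 sites with WT, 239 with ΔZF1 and 148 without UV in ESCs, 107, 89 and 70 in NPCs, and ranked 43 in ESC WT. Pcgf6, which defines a variant PRC1 found at germline genes in ESCs (chr19:47033617-47050906, minus strand), had 62, 41, 26, 26, 24 and 14 sites. Rnf2, the main PRC1 ubiquitin ligase of ESCs (chr1:151458004-151500955, minus strand), had 43, 30, 12, 19, 24 and 18.

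Kdm2b, whose protein brings variant PRC1 to unmethylated CpG islands (chr5:122870665-122989823, minus strand), had the opposite order of cell types to most of the other genes. It held 16 sites with WT, 11 with ΔZF1 and 6 without UV in ESCs, against 48, 38 and 49 in NPCs. Ring1, the paralogue of Rnf2 (chr17:34020792-34024680, minus strand), had 5, 2, 4, 2, 0 and 0 sites, too few for a ratio. A count of 0 allows up to 3 sites.

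The order differed when counts were divided by gene length. Per kilobase of gene body in ESC WT, Mtf2 had 11.6 sites, Suz12 9.36, Rybp 7.96, Ezh2 6.78, Eed 5.24, Pcgf6 3.59 and Jarid2 2.46, against a median of 1.57 over 7808 protein-coding genes with at least 5 sites. Ring1 had 1.29 sites per kilobase, Rnf2 1.00 and Kdm2b 0.13. The 7 densest genes therefore lay above the median and the other 3 below it, and in NPC WT Jarid2, with 0.60 per kilobase against a median of 0.92, also fell below.

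Most member sites lay in introns, in contrast to genic sites in general. In ESC WT, 18.1% of member sites were exonic (16.6 to 19.6), compared with 61.5% of all genic sites. A member site counted as exonic here when it lay in an exon of that member. The exonic share of member sites was 17.2% with ΔZF1 and 14.7% without UV in ESCs, and 35.0% with WT, 27.4% with ΔZF1 and 24.1% without UV in NPCs. Over all genic sites it was 62.8%, 54.4%, 68.8%, 55.4% and 52.5% in those lists. The members were thus below the genic share in all 6 lists, with and without UV.

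**Figure D2:**
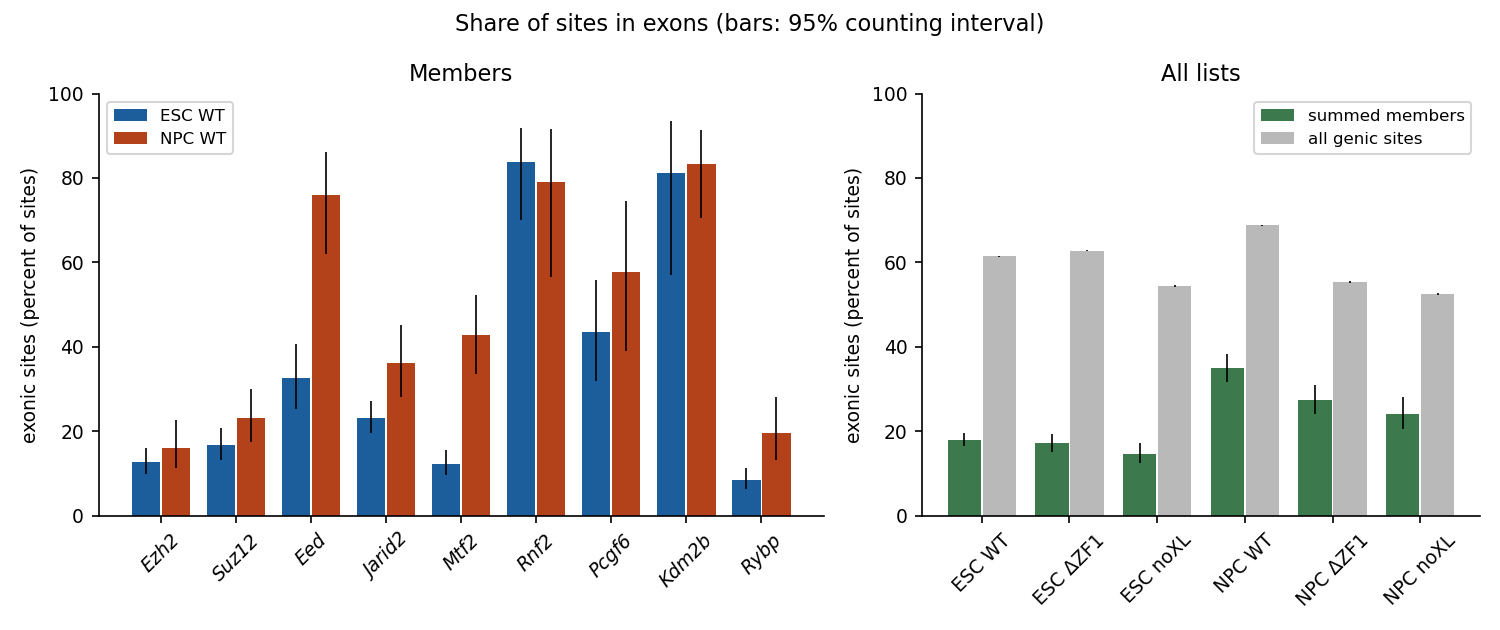
Exonic sites as a percentage of all sites (y axis) for 9 members in the 2 WT lists (left) and for the summed members and all genic sites in the 6 lists (right), with 95% Wilson intervals as error bars and without Ring1, which had 5 and 2 sites. The summed members lay below all genic sites in every list, and 8 of the 9 members, Rnf2 excepted, had a higher exonic share in NPC WT than in ESC WT, as did all genic sites. The intervals did not overlap for Eed, Mtf2, Jarid2 and Rybp.

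The intronic excess came mostly from the genes with many sites. With fewer sites, Eed, at 93 of 138, and Pcgf6, at 35 of 62, also lay above the intronic share of all genic ESC WT sites, 38.5%. In ESC WT, 429 of 469 Rybp sites, 441 of 503 Mtf2 sites, 386 of 442 Ezh2 sites, 320 of 384 Suz12 sites and 363 of 473 Jarid2 sites were intronic. Rnf2 and Kdm2b were mainly exonic, with 36 of 43 and 13 of 16 sites in exons, and all 5 Ring1 sites lay in its 5′ UTR. Intronic sites were rarely close to a splice site. Of 2077 intronic member sites of ESC WT, 4.33% (3.54 to 5.30) lay within 100 nt of an exon, against 12.6% of all intronic sites. Without UV it was 4.63% against 14.9% in ESCs and 7.61% against 12.3% in NPCs.

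Per kilobase, exons were still denser than introns in ESC WT in each gene that had sites in both. The exons of Mtf2 held 15.3 sites per kilobase and its introns 11.2, a ratio of 1.36. The ratio was 1.13 for Rybp, 1.68 for Suz12, 3.23 for Ezh2, 5.68 for Eed and 9.15 for Jarid2. In Mtf2 and Rybp intron and exon were therefore nearly even in ESC WT. In NPC WT the ratios were 7.21 for Mtf2 and 2.95 for Rybp. Introns were the denser part of both genes in ESC ΔZF1, with ratios of 0.46 and 0.70, and in ESC noXL, with 0.59 and 0.60.

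Within genes, intronic sites were unevenly spread. In Jarid2, 339 of 363 intronic ESC WT sites lay in intron 2 of 18, which spans 91.5 kb and makes up 49.5% of its intron length, and 307 of those 339 (90.6%, 87.0 to 93.2) lay in the 5′ 50% of its length. The same bias was present in NPC WT, with 67 of 70 sites, and in ESC noXL, with 85 of 96. In Rybp, intron 2 of 4 held 426 of 429 intronic ESC WT sites, and makes up 97.8% of the intron length, and 66.9% of them (62.3 to 71.2) lay in the 5′ 50% of it. In these introns of Jarid2 and Rybp, sites were thus denser toward the 5′ end, also without UV. In the longest introns of other members, the 5′ 50% held 61.0% of the ESC WT sites in Ezh2 (51.2 to 69.98), 53.9% in Mtf2 (46.8 to 60.8) and 49.4% in Suz12 (38.5 to 60.3).

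**Figure D3:**
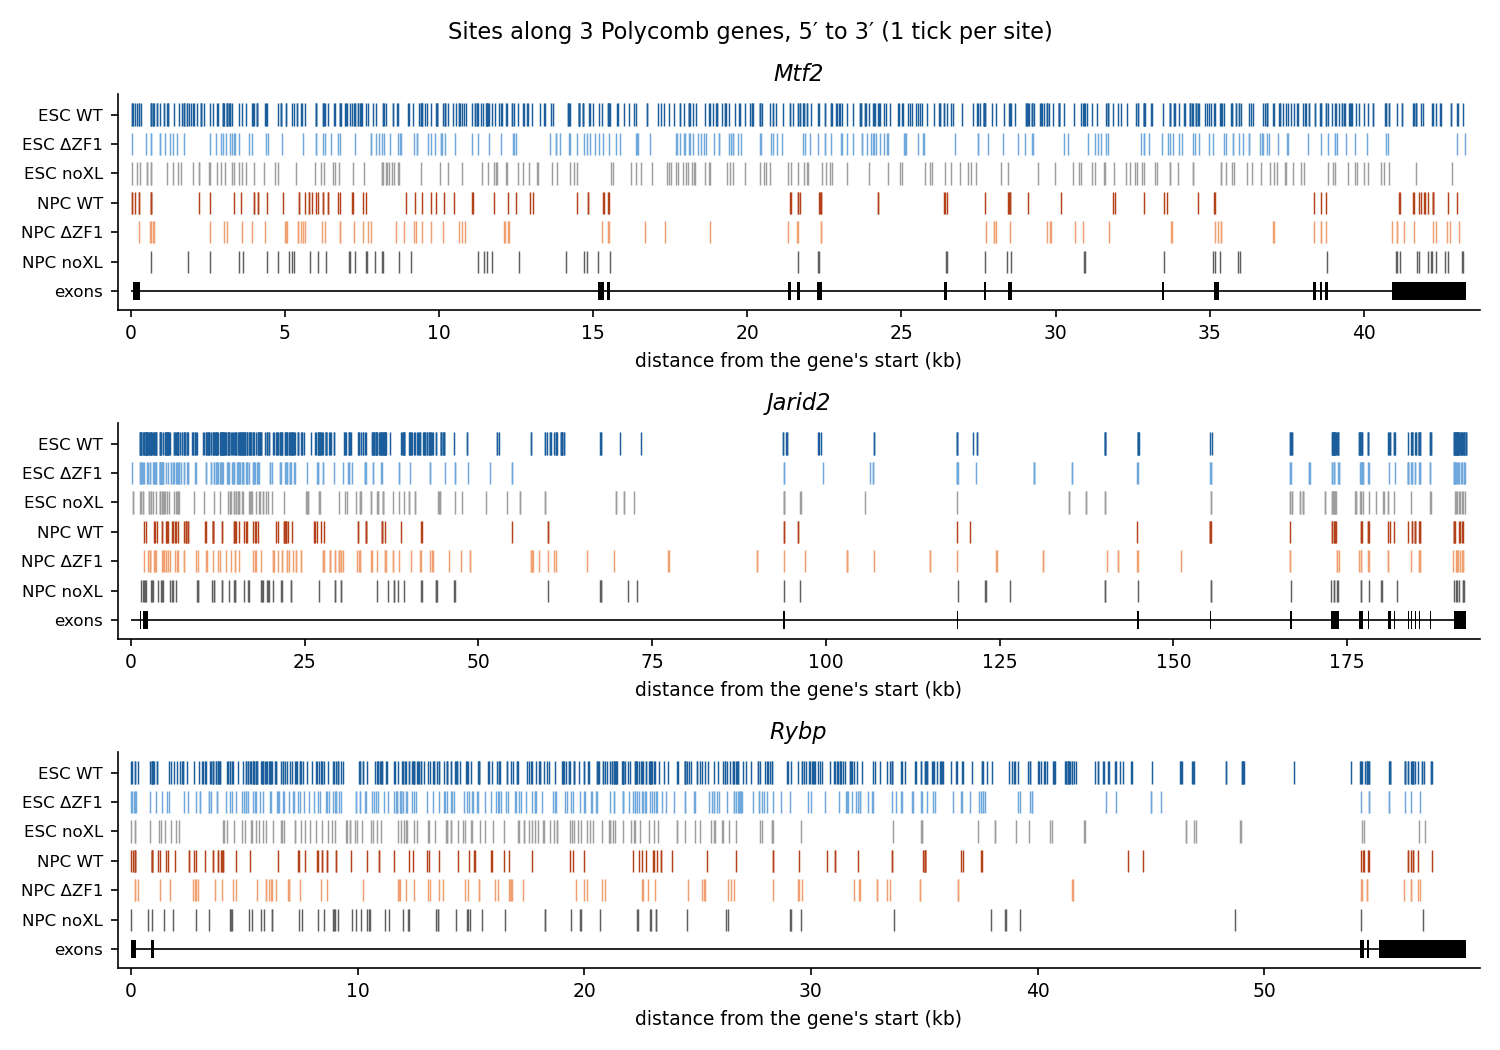
Sites of Mtf2, Jarid2 and Rybp along the gene, with distance from the gene's 5′ end in kb (x axis) and 1 tick per site in each of the 6 lists, and black boxes for exons. Introns of Mtf2 after intron 1 held 250, 117 and 99 sites in the ESC lists and 11, 20 and 7 in the NPC lists, and sites of Jarid2 lay mostly in the 5′ part of intron 2.

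In Mtf2 the pattern differed between cell types. Its intron 1, of 14.9 kb, held 191 sites in ESC WT against 48 in NPC WT, a scaled log2 ratio of -1.07 (-1.55 to -0.64). Ratios of these separate introns are scaled to all genic sites and not to intronic sites. Its other 13 introns held 250 sites in ESC WT against 11 in NPC WT, a ratio of -3.49 (-4.47 to -2.75). Introns 3, 11 and 14, named after their values were seen, with 51, 37 and 23 sites in ESC WT, had 0 in NPC WT. The 2 intervals do not overlap, so the difference was larger downstream of intron 1.

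The same held in the noXL and ΔZF1 lists. In the noXL lists, intron 1 of Mtf2 held 65 sites in ESCs and 31 in NPCs, while its other introns held 99 and 7, a ratio of -3.08 (-4.34 to -2.18). In the ΔZF1 lists the other introns held 117 and 20, a ratio of -1.98 (-2.72 to -1.36). The lower number of sites in these Mtf2 introns in NPCs was thus also present in the lists made without UV.

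The comparison of NPCs with ESCs asks how the sites on these RNAs follow differentiation. Summed over members, the scaled log2 ratio of NPC WT over ESC WT was -0.76 (-0.88 to -0.65). For the ΔZF1 rescue it was -0.44 (-0.58 to -0.30), and for noXL -0.22 (-0.38 to -0.06). Over all sites, members were therefore lower in NPCs in all 3 pairs of lists, by the most in WT. Where intronic or exonic sites are taken alone, they are scaled to the intronic or exonic sites of each list. With intronic sites alone the values were -0.78 for WT (-0.92 to -0.65), -0.90 for ΔZF1 (-1.06 to -0.73) and -0.46 for noXL (-0.65 to -0.28). With exonic sites alone the WT value was -0.049 (-0.26 to 0.16) and the direction of the sum turned for ΔZF1, at 0.37 (0.08 to 0.65), and for noXL, at 0.54 (0.19 to 0.89). In both of these pairs Mtf2 and Kdm2b alone had exonic intervals above 0, and those of the other members held 0. Exonic sites of Mtf2 were 9 in ESCs and 25 in NPCs with ΔZF1, and 10 and 25 without UV. Those of Kdm2b were 9 and 22, and 1 and 23.

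**Figure D4:**
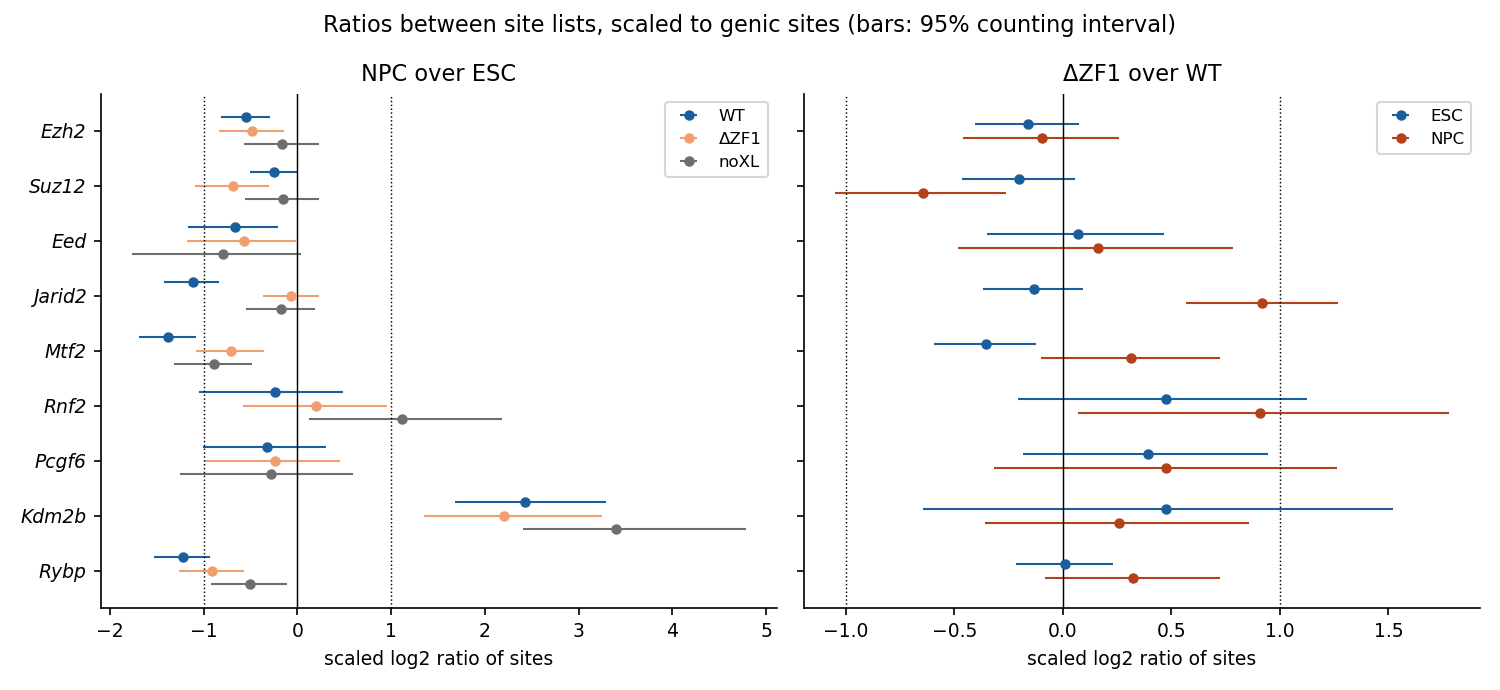
Scaled log2 ratios of sites (x axis) for the 9 members with enough sites (y axis), for NPC over ESC (left, 3 pairs of lists) and ΔZF1 over WT (right, ESCs and NPCs), with 95% Wilson intervals as bars and the limits of 1 and -1 marked. Mtf2, Rybp and Jarid2 lay below -1 and Kdm2b above 1 for WT NPC over ESC, and no member passed a limit for ΔZF1 over WT.

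For NPC WT over ESC WT, 3 of 9 tested members lay below the lower limit and 1 above the upper limit, where 10.4% and 11.5% of 6730 genes did. The median over members was -0.55 and that over all genes 0.04. The 3 lower genes were Mtf2, at -1.38 (-1.69 to -1.08), Rybp, at -1.22 (-1.54 to -0.93), and Jarid2, at -1.12 (-1.42 to -0.84). Kdm2b was higher, at 2.43 (1.68 to 3.29). Over whole bodies, Mtf2, Jarid2 and Rybp thus lay further from 0 than the PRC2 core, although the interval of Eed overlapped theirs. The order differed by part of the gene. In introns the core gene Eed stood at -1.74, beside -1.68 for Mtf2, -1.08 for Jarid2 and -1.07 for Rybp, and in exons Mtf2 stood at 0.25.

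Over whole bodies, the PRC2 core was closer to 0. Ezh2 stood at -0.55 (-0.82 to -0.30), Eed at -0.67 (-1.17 to -0.21) and Suz12 at -0.25 (-0.51 to 0.01). The intervals of Rnf2, at -0.24 (-1.05 to 0.49), and of Pcgf6, at -0.32 (-1.01 to 0.30), held 0.

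For NPC ΔZF1 over ESC ΔZF1, 0 of 9 members lay below and 1 above, beside 14.1% and 10.9% of 5113 genes. With intronic sites alone 4 of 7 tested members lay below, beside 22.8% of 1802 genes, whose median was -0.22. These were Mtf2 at -1.40, Rybp at -1.30, Suz12 at -1.21 and Eed at -1.10. Over the whole body, Kdm2b stood at 2.21 (1.34 to 3.25), Rybp at -0.91 (-1.27 to -0.57), Mtf2 at -0.71 (-1.09 to -0.35) and Jarid2 at -0.07 (-0.37 to 0.23). For NPC noXL over ESC noXL, 0 of 9 lay below and 2 above, beside 12.3% and 11.1% of 3726 genes. These were Kdm2b, at 3.40 (2.40 to 4.78), and Rnf2, at 1.11 (0.12 to 2.18), with 1 member above once sites also lying in another gene were left out. The higher Kdm2b count in NPCs was therefore present in all 3 pairs of lists, also without UV.

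Some cell type ratios differed between WT and noXL by more than counting error. The WT ratio minus the noXL ratio was -0.95 for Jarid2 (-1.41 to -0.48), -0.72 for Rybp (-1.23 to -0.21) and -1.43 for Rnf2 (-2.74 to -0.12). For Mtf2 it was -0.49 (-1.0 to 0.03) and for Kdm2b -1.11 (-2.58 to 0.36), both with 0 in the interval. Over whole bodies, the lower values of Jarid2 and Rybp in NPC WT thus went beyond those of the lists without UV, while for Mtf2 and Kdm2b this was not detectable. With intronic sites alone, Jarid2 stood at -1.08 (-1.45 to -0.73) for WT and at -0.22 (-0.64 to 0.18) for noXL. Rybp stood at -1.07 (-1.43 to -0.74) and -0.58 (-1.04 to -0.16), and its intervals overlapped.

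Exons and introns were then scaled each to their own totals, with a site counted as exonic when it lay in an exon of any gene of that strand. By that count the members had 493 exonic sites in ESC WT against 286 in NPC WT, a ratio of -0.05 (-0.26 to 0.16). Their intronic sites were 2042 and 515, a ratio of -0.78 (-0.92 to -0.65), where the median over 2264 genes was -0.12. The exonic sum holds members that went both ways: Kdm2b had 13 and 40 exonic sites, a ratio of 2.29, while Jarid2 was lower.

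Mtf2 and Eed differed between the parts. Exonic sites of Mtf2 were 62 in ESC WT and 44 in NPC WT, a ratio of 0.25 (-0.31 to 0.80), beside -1.68 in introns (-2.09 to -1.31). Exonic sites of Eed were 47 and 35, a ratio of 0.32 (-0.32 to 0.94), whereas intronic sites were 91 and 11, a ratio of -1.74 (-2.73 to -0.96). In Jarid2 both parts were lower, at -0.63 in exons (-1.16 to -0.14) and -1.08 in introns. In Rybp introns stood at -1.07 and exons at -0.72, but the latter counts 73 and 26 sites in exons of any gene, of which 40 and 21 lay in its own exons. In the noXL lists Mtf2 also differed by part, at 1.85 in exons (0.90 to 2.97) and -1.57 in introns (-2.11 to -1.10).

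The comparison of ΔZF1 with WT asks whether the mutation in zinc finger 1 goes with fewer sites on these RNAs. Relative to genic sites, the summed members stood at -0.12 (-0.22 to -0.02) in ESCs and at 0.20 (0.05 to 0.35) in NPCs. The NPC value was 0.21 (-0.06 to 0.48) with exonic sites alone, -0.17 (-0.35 to 0.02) with intronic sites alone and -0.39 without scaling. Without Jarid2 it was 0.034 (-0.14 to 0.20), and without Suz12 0.37 (0.20 to 0.54). The ESC value without Mtf2 was -0.069 (-0.18 to 0.041). In ESCs, 0 of 9 members lay above and 0 below the limits, beside 6.84% and 5.45% of 6518 genes. In NPCs it was again 0 and 0 of 9, beside 5.76% and 7.36% of 5274 genes. No member thus differed past the limits over its whole body, although ΔZF1 lists held fewer sites in total. With intronic sites alone, 1 of 7 tested members, Suz12, lay past the lower limit in NPCs, at -1.32 (-1.81 to -0.87), beside 11.7% of 1664 genes, and Ezh2 stood at -0.66 (-1.06 to -0.27).

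In ESCs, Mtf2 was the 1 member whose interval lay off 0, at -0.35 (-0.60 to -0.12). Its exonic sites were 62 in WT and 9 in ΔZF1, a ratio of -1.71 (-2.83 to -0.85), while its intronic sites stood at -0.18 (-0.43 to 0.06). In NPCs its exonic sites were 44 and 25, a ratio of 0.11 (-0.62 to 0.78). The lower exonic count of Mtf2 with ΔZF1 was thus seen in ESCs and not detectable in NPCs.

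In NPCs, Jarid2 stood at 0.92 (0.57 to 1.27), Rnf2 at 0.91 (0.07 to 1.78) and Suz12 at -0.65 (-1.05 to -0.26). Before scaling, Jarid2 and Rnf2 were the members with more sites in ΔZF1 than in WT, with 146 against 116 and 24 against 19. The NPC minus ESC difference of the ΔZF1 ratio was 1.06 for Jarid2 (0.64 to 1.48) and 0.67 for Mtf2 (0.19 to 1.15). For Suz12 it was -0.45 (-0.93 to 0.02). Suz12 lies on chromosome 11, where the median of 501 genes for NPC ΔZF1 over WT was -0.61, and that of 607 genes in ESCs -0.47. Scaled to the genic sites of its own chromosome, Suz12 stood at -0.016 (-0.42 to 0.37) in NPCs and at 0.38 (0.11 to 0.63) in ESCs. The medians of the other members' chromosomes ran from -0.067 to 0.043 in NPCs and from -0.021 to 0.15 in ESCs.

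The noXL lists give the background without UV. For ESC WT over noXL, 0 of 9 members lay above and 0 below the limits, beside 8.12% and 6.6% of 6208 genes, and the ratios ran from -0.29 for Pcgf6 to 0.44 for Eed. For ESC ΔZF1 over noXL it was 0 and 0 of 8, beside 7.86% and 6.56% of 5013 genes. Over whole bodies, the relative number of sites per member in ESCs was thus close to that without UV, with all 9 intervals of WT over noXL holding 0. With intronic sites alone the summed members stood at 0.28 (0.16 to 0.40) for ESC WT over noXL, where the median over 2240 genes was 0.08. The intronic intervals of Ezh2, Eed and Rybp lay above 0 and those of the other tested members held 0. With exonic sites alone the sum was 0.18 (-0.09 to 0.46).

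In NPCs more members were relatively lower with UV when whole bodies were counted. Summed over members, NPC WT over noXL stood at -0.45 (-0.61 to -0.29). It was -0.40 (-0.70 to -0.10) with exonic sites alone and -0.04 (-0.24 to 0.15) with intronic sites alone. In introns Ezh2 stood at 0.45 (0.04 to 0.89), Jarid2 at -0.59 (-1.05 to -0.13) and Kdm2b at -2.15 (-3.38 to -1.15). For NPC WT over noXL, 0 of 9 lay above and 2 below the limits, beside 10.5% and 6.51% of 4765 genes. These were Kdm2b, at -1.20 (-1.77 to -0.63), and Rnf2, at -1.10 (-2.01 to -0.18). The count moved with the setting: 1 member was lower with merged regions, with sites also in another gene left out, with exonic or intronic sites alone or with a minimum of 50 sites, and 0 with uridine sites, and Rnf2 was at 0.074 without scaling. Jarid2 stood at -0.90 (-1.29 to -0.51), Rybp at -0.57 (-0.99 to -0.13) and Mtf2 at -0.47 (-0.92 to -0.01). For NPC ΔZF1 over noXL it was 0 and 0 of 9, beside 7.19% and 8.03% of 3699 genes, with Kdm2b at -0.95 and Suz12 at -0.75.

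The nucleotide at the site separated the lists with and without UV more clearly than the counts did. UV links proteins to uridine by preference. In ESCs, uridine made up 68.2% of member sites with WT (66.3 to 69.95), 54.1% with ΔZF1 and 32.6% without UV. In NPCs it made up 71.2% (67.9 to 74.2), 66.1% and 29.3%. Over all genic sites it was 60.6%, 49.2%, 28.3%, 64.6%, 59.0% and 27.9%. The members were above the genic share in all 6 lists, those without UV included, though within counting error in NPC noXL, and within introns of ESC WT too, at 68.5% against 62.1%.

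**Figure D5:**
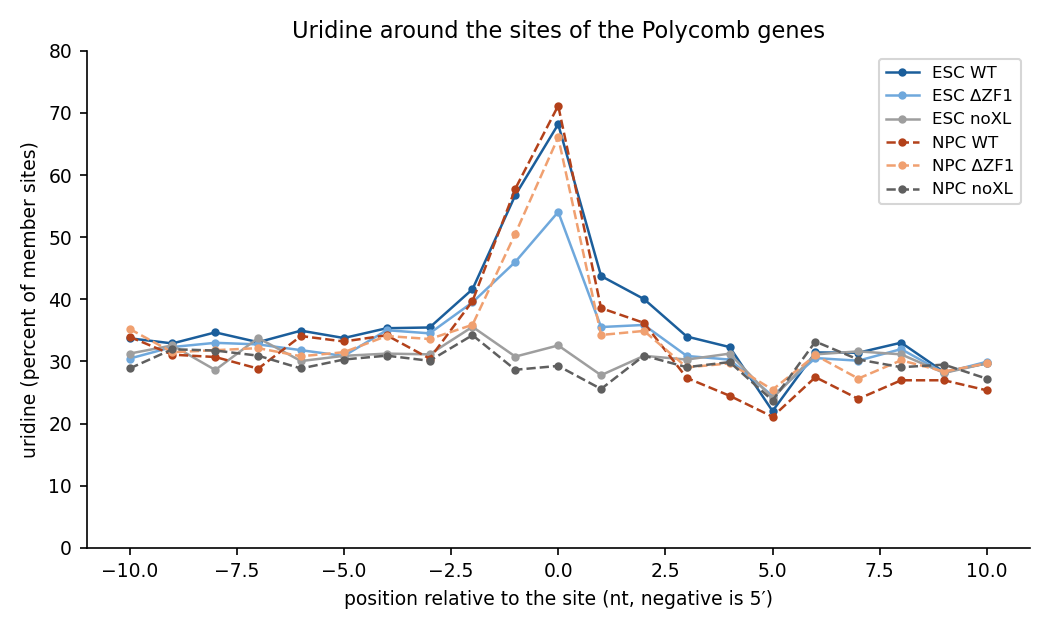
Share of uridine in percent (y axis) at each position from 10 nt before to 10 nt after the site (x axis, 0 is the site) over all member sites of each list. The UV lists peaked at the site, at 68.2% in ESC WT and at 71.2% in NPC WT, while the noXL lists, at 32.6% and 29.3%, did not.

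In ESC WT the position before the site was uridine in 56.8% of member sites and the position after it in 43.7%, against 30.8% and 27.8% in ESC noXL. The lowest share in every list lay 5 nt after the site, from 21.1% in NPC WT to 25.4% in NPC ΔZF1, with 24.1% in ESC noXL and 23.7% in NPC noXL. Among single genes of ESC WT, uridine was most frequent in Mtf2, at 73.0%, and Suz12, at 71.6%. Kdm2b differed, with 37.5% of 16 sites in ESC WT and 72.9% of 48 in NPC WT. Its 49 sites in NPC noXL were uridine in 24.5%, so that its NPC lists held like numbers of sites on different bases.

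Split by base, members had 1728 uridine sites in ESC WT and 272 in ESC noXL, an unscaled ratio of 6.35 (5.59 to 7.22), and 807 and 563 sites on other bases, a ratio of 1.43 (1.29 to 1.60). In NPCs the ratios were 4.01 (3.34 to 4.82) for uridine and 0.67 (0.57 to 0.80) for other bases, where all genic sites gave 5.22 and 1.11. With ΔZF1, uridine sites in ESCs were 639, 0.37 of WT (0.34 to 0.40), and other sites 543, 0.67 of WT (0.60 to 0.75). The lower count of ΔZF1 in ESCs was thus larger for uridine sites, among members as among all genic sites, which gave 0.41 and 0.65. In NPCs the members' ratios were 0.71 (0.63 to 0.81) and 0.90 (0.75 to 1.09).

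Some member sites recurred at the same place in another list. Such a share also follows the density of sites, which differed between members and genes in general, so that the genic shares are given without a comparison. Within 5 nt of an ESC WT site lay 29.1% of NPC WT member sites (26.0 to 32.3), and 28.2% of all genic sites, and 19.5% of ESC ΔZF1 member sites (17.4 to 21.9), and 24.2% of genic ones. Of NPC ΔZF1 member sites, 10.4% lay as near to an NPC WT site (13.1% of genic ones), and of NPC noXL member sites 4.12% (2.69 to 6.28) to an ESC noXL site (6.65% of genic ones). Of ESC WT member sites, 5.76% lay within 5 nt of an ESC noXL site, and those were uridine in 43.2%, against 69.7% of the others. All genic sites showed the same, with 7.67% near a noXL site, of which 45.7% were uridine, against 61.9% of the others.

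In all, 108 nucleotides of the members were called in both WT lists, of which 90 were uridine (83.3%), 55 were exonic and 88 had no noXL site within 5 nt. Suz12 held 32 of them, Mtf2 24, Rybp 14, Jarid2 13, Ezh2 12 and Eed 8. In Suz12, 31 of 32 were uridine. Both ΔZF1 lists shared 12 nucleotides and both noXL lists 2, and 1, in Mtf2, was called in all 6 lists.

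A wider list of 41 genes of Polycomb and of enzymes that oppose it, chosen by function, gives the setting. For NPC WT over ESC WT, 28 could be tested, of which 3 were higher and 6 lower past the limits, beside 11.5% and 10.4% of all genes, with a median of -0.01. Scml2, a PRC1 partner, had 129 sites with WT, 0 with ΔZF1 and 44 without UV in ESCs, and 7, 2 and 2 in NPCs. In ESC ΔZF1 it was at least 21.8-fold lower than in ESC WT, against a floor of 3 sites. Pcgf2, the canonical counterpart of Pcgf6, had 99 and 15 sites in ESC WT and NPC WT, a ratio of -1.75 (-2.60 to -1.05), and Cbx6, a chromodomain gene of PRC1, had 38 and 50, a ratio of 1.29 (0.69 to 1.90). Cbx6 stood at -0.92 (-1.73 to -0.20) for ΔZF1 and at -0.07 for noXL. Fbrsl1, a relative of Auts2, had 69 and 11, a ratio of -1.65 (-2.65 to -0.85), and stood at -2.79 for ΔZF1 and -2.80 for noXL.

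For ESC ΔZF1 over WT, 1 of 26 genes of the wider list was higher and 4 were lower, beside 6.84% and 5.45% of all genes. For NPC ΔZF1 over WT, 3 of 25 were higher and 1 was lower, beside 5.76% and 7.36%. Cbx6 stood at 1.37 (0.77 to 1.98) in ESCs, and Auts2, a partner of variant PRC1, at 1.80 (1.15 to 2.52) in NPCs, with 24 sites in WT and 57 in ΔZF1. In the other cell type both were lower, Cbx6 at -0.84 in NPCs (-1.66 to -0.12) and Auts2 at -1.07 in ESCs (-2.48 to -0.01).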

How the data were processed

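iCLIP2 libraries of 23 samples in 6 groups were used as 6 lists of sites. Per the study's methods, the authors used Flexbar for trimming, STAR for alignment to mm10 and UMI-tools for removing duplicates, then pooled a group's libraries and called single-nucleotide sites with PureCLIP. The deposited score of a site is PureCLIP's and is not scaled to depth. Read depth per library is unknown from the lists.

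Each site on the 19 autosomes, X or Y was assigned to genes of GENCODE M21 basic (GRCm38, the same build as mm10) on its strand. Of 6451 member sites, 104 (1.61%) also lay in another gene, 76 of them in Rybp. Exon classes took priority over introns. Scaled log2 ratios were computed from counts of sites plus 1, and the limits were 1 and -1. With 1 list per group there was no test, and Python 3.11.15, numpy 2.4.6 and pandas 2.3.3 gave the values. The ratio calculation was tested on simulated data.

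All members are reported. Genes of the wider list were named from those past a limit whose sites in both lists added up to at least 50, up to the 3 highest and 3 lowest per comparison. The members, lists and thresholds were chosen with earlier results of these data known.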

Additional observations from a re-analysis of the deposited data

Results flagged for a closer look

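The summed member ratio of ΔZF1 over WT lay on opposite sides of 0 in the cell types, at -0.12 (-0.22 to -0.02) in ESCs and 0.20 (0.05 to 0.35) in NPCs. The NPC value minus the ESC value was 0.32 (0.14 to 0.50, counting error only), and with 1 list per group the difference was not tested. The signs were no longer opposite with intronic sites alone, at -0.057 and -0.17, or without scaling, at -1.10 and -0.39, and without Jarid2 the NPC value was 0.034 (-0.14 to 0.20). Among single members, 1.06 for Jarid2 and 0.67 for Mtf2 were the differences whose intervals lay off 0.

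On the strand opposite to Jarid2, which the counts above leave out, 7 sites were called in NPC ΔZF1 within 391 nt (chr13:44869633-44870023), against 0 in NPC noXL and 0 in both WT lists. ESC noXL held 3 sites on that strand elsewhere in the gene, in 2 regions and all on uridine. The 7 NPC ΔZF1 sites formed 3 regions, 3 of them lay on uridine, and 0 lay in an annotated gene of that strand. The highest score among them was 708.4, which is the highest value the score takes in every list and is held by 71 sites of NPC ΔZF1.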

How the results depend on the processing

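No paired analysis was possible because site calling used all libraries of a group as one pool, which also kept single libraries from being omitted. Of 184 alternative values of the summed member ratio, 163 moved by less than counting error and 11 differed in sign, and of 242 counts of members past the limits 200 were equal and 42 differed. The 184 include 9 sums for each member left out, which share most of their sites with the main value and so move little. Among single members, 758 of 877 alternative ratios stayed within counting error and 99 differed in sign, 32 of them with exonic sites only and 28 without scaling. Past a limit at first, and then of the other sign, were Mtf2 for NPC WT over ESC WT with exonic sites only (0.25) and Rnf2 for NPC WT over noXL without scaling (0.074).

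Leaving out 1 member at a time, chosen after seeing the data, moved the sum past counting error for NPC ΔZF1 over WT, at 0.37 without Suz12 and 0.034 without Jarid2, and for NPC WT over ESC WT, at -0.64 without Mtf2.

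Without scaling, which leaves in the sizes of the lists, the summed ratio was -1.10 for ESC ΔZF1 over WT, -0.39 for NPC ΔZF1 over WT, -1.66, -0.95 and -0.78 for NPC over ESC in WT, ΔZF1 and noXL, 1.60 and 0.72 for WT over noXL in ESCs and NPCs, and 0.50 and 0.34 for ΔZF1 over noXL. Members past the lower limit were then 4 for ESC ΔZF1 over WT, 1 for NPC ΔZF1 over WT, 8, 4 and 3 for NPC over ESC in WT, ΔZF1 and noXL (1 higher in noXL), and those past the upper limit 9 and 3 for WT over noXL in ESCs and NPCs (0 lower in NPCs) and 2 and 1 for ΔZF1 over noXL. These counts follow the sizes of the lists: genic sites as a whole were 2.85 times as many in ESC WT as in ESC noXL. No share over all genes was taken without scaling, so these counts say nothing about the members as such. Exonic sites alone gave -0.049, 0.37 and 0.54 for NPC over ESC in WT, ΔZF1 and noXL, with 0 members lower in WT, 2 higher in ΔZF1 (Mtf2 and Kdm2b), and 1 lower for ESC ΔZF1 over WT (Mtf2) and for NPC WT over noXL (Rnf2). No share over all genes was taken with exonic sites alone, so these counts have no background.

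Intronic sites alone gave -0.17 for NPC ΔZF1 over WT, -0.90 and -0.46 for NPC over ESC in ΔZF1 and noXL, 0.28 and -0.040 for WT over noXL in ESCs and NPCs, and 0.22 for ESC ΔZF1 over noXL. For NPC over ESC, 0 members were then higher in WT and ΔZF1, where Kdm2b had too few intronic sites, 1 was higher in noXL, and 4 and 2 were lower in ΔZF1 and noXL. For NPC ΔZF1 over WT (Suz12), NPC WT over noXL and NPC ΔZF1 over noXL, 1 member was lower, and 1 was higher for ΔZF1 over noXL in each cell type. Over all genes, 22.8% of 1802 were lower for NPC over ESC in ΔZF1, and 11.7% of 1664 for NPC ΔZF1 over WT. No share over all genes was taken for the other intronic counts, which have no background.

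Sites at or above the median score gave 1 member higher for NPC ΔZF1 over WT, noXL NPC over ESC and NPC WT or ΔZF1 over noXL, and 1 lower for ΔZF1 NPC over ESC, as did scaling to the gene's own chromosome. For noXL NPC over ESC, uridine sites alone gave 0 higher and 1 lower, and sites shared with another gene left out, or a minimum of 50 sites, gave 1 higher. For NPC WT over noXL, the count of lower members was 0 with uridine sites and 1 with merged regions, with shared sites left out or with a minimum of 50 sites, which also left 0 higher for ΔZF1 NPC over ESC. No share over all genes was taken under the settings of this paragraph, so that its counts have no background.

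The exonic share in ESC WT was 21.8% at the higher score, 16.2% with the best site of each region and 20.0% as a median over members, and in NPC WT 39.9% at the higher score. Medians over members were 19.8% in ESC ΔZF1 and, among NPCs, 39.5% with WT, 31.5% with ΔZF1 and 19.7% without UV. With all GENCODE transcripts, an alternative chosen after seeing the data, it was 22.1%, 21.9% and 19.4% in ESC WT, ΔZF1 and noXL and 38.6%, 32.1% and 30.5% in NPCs. The median uridine share over members in ESC WT was 66.3%. Shares near noXL sites for WT and ΔZF1 in ESCs, then in NPCs, were 1.62%, 1.86%, 1.12% and 0.82% at 0 nt, 14.5%, 15.3%, 12.6% and 8.16% at 20 nt, and 28.2%, 31.1%, 24.5% and 17.9% at 50 nt, and at the higher score 7.40% and 8.70% in the ESC lists. Where not stated, the cause was not tested. Depth per library is unknown, and Ring1, Rnf2, Pcgf6 and Kdm2b have too few sites to show small differences.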
